A study of Mus musculus with 32 samples.

Results

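The genes for vasoactive intestinal peptide and pituitary adenylate cyclase-activating polypeptide and for their receptors were followed in the basolateral amygdala of adolescent and adult mice after social defeat. They are 5 of the 40392 genes of the deposited expression table: the ligand genes Vip and Adcyap1, and the receptor genes Vipr1, Vipr2 and Adcyap1r1. The set was chosen by the Vipr1 counts of adults at day 1, which were higher with defeat than in controls, so the values of that comparison are given as a description with no test. All 5 were found by gene symbol, and all 5 passed the filter on low counts, which left 23778 genes.

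Vasoactive intestinal peptide (VIP) and pituitary adenylate cyclase-activating polypeptide (PACAP) are related neuropeptides of the secretin and glucagon family. VPAC1 and VPAC2, the products of Vipr1 and Vipr2, bind both peptides with similar affinity, whereas PAC1, the product of Adcyap1r1, prefers PACAP. All are class B G protein-coupled receptors that mainly raise cyclic AMP through Gs, and PAC1 can also couple to phospholipase C. In cortex and amygdala, Vip marks a class of inhibitory interneurons that largely contact other interneurons, and PACAP signalling through PAC1 in the amygdala is known for its part in fear and stress responses.

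Polyadenylated RNA was sequenced in 32 libraries that form 8 groups of 4. The groups were adolescent defeat and adolescent control mice at day 1, the same at day 21, and adult defeat and adult control mice at day 1 and at day 21. Defeat stands for social defeat stress, a procedure that confronts a mouse with an aggressor, and the controls did not carry that label. The design text gives ages of 6 and 9 weeks without linking either one to adolescent or adult, and the labels give neither strain nor sex, nor the event that the days count from. The labels do not state whether each library came from its own animal, and the p-values therefore reflect only the variation among these libraries, which may be technical.

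Library totals ranged from 53885799 to 82208892 counts. Markers of pallial excitatory neurons, the principal neurons of the basolateral amygdala, were present in every library: of 10 listed genes 10 were tested, and Slc17a7 (vesicular glutamate transporter 1) ranged from 789 to 1279 CPM (counts brought to a common depth by TMM factors). Markers of the neighbouring striatum and central amygdala were also present, and summed over 11 genes they ranged from 1952 to 4031 CPM. Ttr, the main transcript of the choroid plexus, exceeded 100 CPM in 11 libraries, among them 4 of 4 of adolescent defeat day 1 and 1 of 4 of adolescent control day 1. Hypothalamic markers stayed between 2.22 and 8.45 CPM when summed over 6 genes. Fewer cells of a type and less RNA per cell cannot be told apart in such bulk libraries.

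The upstream sequence of both ligand genes and of Vipr1 is shown, because the ligands varied together across libraries and Vipr1 gave the set its starting observation. Each window holds the 250 bases before the start site listed by RefSeq on GRCm38.p6, 5′ to 3′ on the strand of the gene, which is the plus strand for all of them. For Adcyap1, which has more than one listed start site, the window shown is the one free of annotated exons. In Vip and Adcyap1 the capitals mark the longest run of bases that their windows share on either strand, and in Vipr1 they mark matches to GGGCGG (the GC box letters) or TGACG on either strand.
Vip, chr10:5638968-5639217: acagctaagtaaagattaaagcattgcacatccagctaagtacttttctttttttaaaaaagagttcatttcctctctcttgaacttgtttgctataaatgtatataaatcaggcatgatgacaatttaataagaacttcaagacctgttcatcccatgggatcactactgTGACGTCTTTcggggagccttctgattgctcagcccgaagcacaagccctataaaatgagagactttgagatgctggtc
Adcyap1, chr17:93198767-93199016: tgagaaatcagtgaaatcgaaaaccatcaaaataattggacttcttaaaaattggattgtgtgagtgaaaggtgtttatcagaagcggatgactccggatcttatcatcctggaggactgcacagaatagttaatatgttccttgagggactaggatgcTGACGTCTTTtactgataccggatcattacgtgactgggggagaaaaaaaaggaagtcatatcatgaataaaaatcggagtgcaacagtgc
Vipr1, chr9:121642466-121642715: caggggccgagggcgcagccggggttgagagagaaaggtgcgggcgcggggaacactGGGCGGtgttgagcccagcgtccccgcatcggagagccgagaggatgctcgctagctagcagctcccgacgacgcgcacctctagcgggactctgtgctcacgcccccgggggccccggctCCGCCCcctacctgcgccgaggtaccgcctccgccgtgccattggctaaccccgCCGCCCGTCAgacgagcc

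The shared run TGACGTCTTT was 10 bases long, beginning 79 bases before the start site of Vip and 91 bases before that of Adcyap1. In the other listed Adcyap1 window, which overlaps an exon, it begins 242 bases before the start site. It occurred in 20 of 32851 windows of the same length, or 0.0609%, the windows it was picked from included. Since it was picked as the longest shared run, its rarity is no evidence of a relation between the genes. The run begins with TGACG, the core letters of the cyclic AMP response element, which 17.8% of all windows hold on one strand or the other. The full palindrome TGACGTCA was in 1.55% of windows and in none of the windows shown. GC content was 38.4% in the Vip window and 39.6% in that of Adcyap1, against a median of 52.4% over all windows. The Vipr1 window had 72.8% GC, higher than 94.0% of windows, and held 3 matches to GGGCGG, a string found in 32.7% of windows. The match nearest the start site overlapped a match to TGACG. The clock-related E-box CACGTG was in 6.02% of windows and in none of those shown. These are matches of letters and carry no evidence of binding.

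Per length of transcript, Adcyap1r1 was the most abundant of the set. Its FPKM (fragments scaled to transcript length and sequencing depth) averaged 28.8 ± 2.26 over the libraries (SD, n = 32), which ranked 1460th of the 23778 tested genes. Vip averaged 4.67 ± 0.767 FPKM and Vipr1 4.46 ± 0.501 FPKM. Adcyap1 followed with 2.49 ± 0.523 FPKM, and Vipr2 was lowest with 0.492 ± 0.148 FPKM. The order of the receptors was the same in every library: the FPKM of Adcyap1r1 was 5.15 to 8.75 times that of Vipr1, and the FPKM of Vipr1 was 5.59 to 20.7 times that of Vipr2. Among the ligands the FPKM of Vip exceeded that of Adcyap1 in every library, by a ratio of 1.38 to 2.95.

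**Figure D1:**
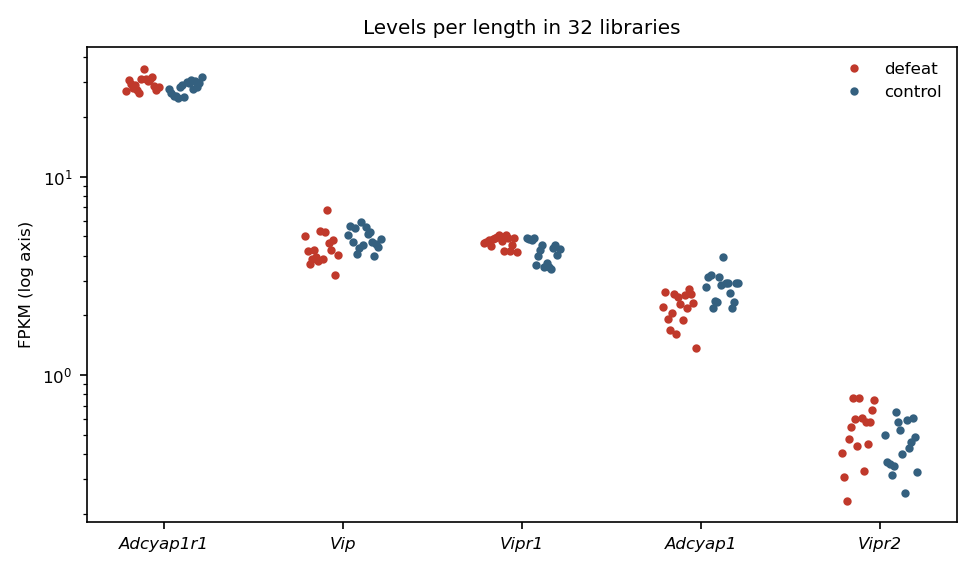
FPKM of each gene in every library, on a log axis, with defeat libraries to the left of control libraries. Adcyap1r1 is highest at 25.0 to 35.0 FPKM, Vip (3.20 to 6.83 FPKM) and Vipr1 (3.41 to 5.09 FPKM) overlap, and Vipr2 is lowest at 0.233 to 0.772 FPKM.

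These levels rest on 10535 to 17147 counts per library for Adcyap1r1, 1367 to 2495 for Vipr1, 756 to 1731 for Vip, 350 to 1130 for Adcyap1 and 82 to 235 for Vipr2. Vipr2 was also the most variable, with a coefficient of variation of 30.0% in CPM over the 32 libraries, and Adcyap1r1 the least, with 8.15%. In the table's own coordinates, whose build is not stated, all 5 lie on the plus strand: Vip (ENSMUSG00000019772) at chr10:5589218-5597617, Adcyap1 (ENSMUSG00000024256) at chr17:93506445-93513965, Vipr1 (ENSMUSG00000032528) at chr9:121471782-121502020, Vipr2 (ENSMUSG00000011171) at chr12:116041346-116109881 and Adcyap1r1 (ENSMUSG00000029778) at chr6:55428963-55478436. Gm20658, on the opposite strand, overlaps Vipr2 and never exceeded 4 counts in a library, although the counting may not have used strand.

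**Figure D2:**
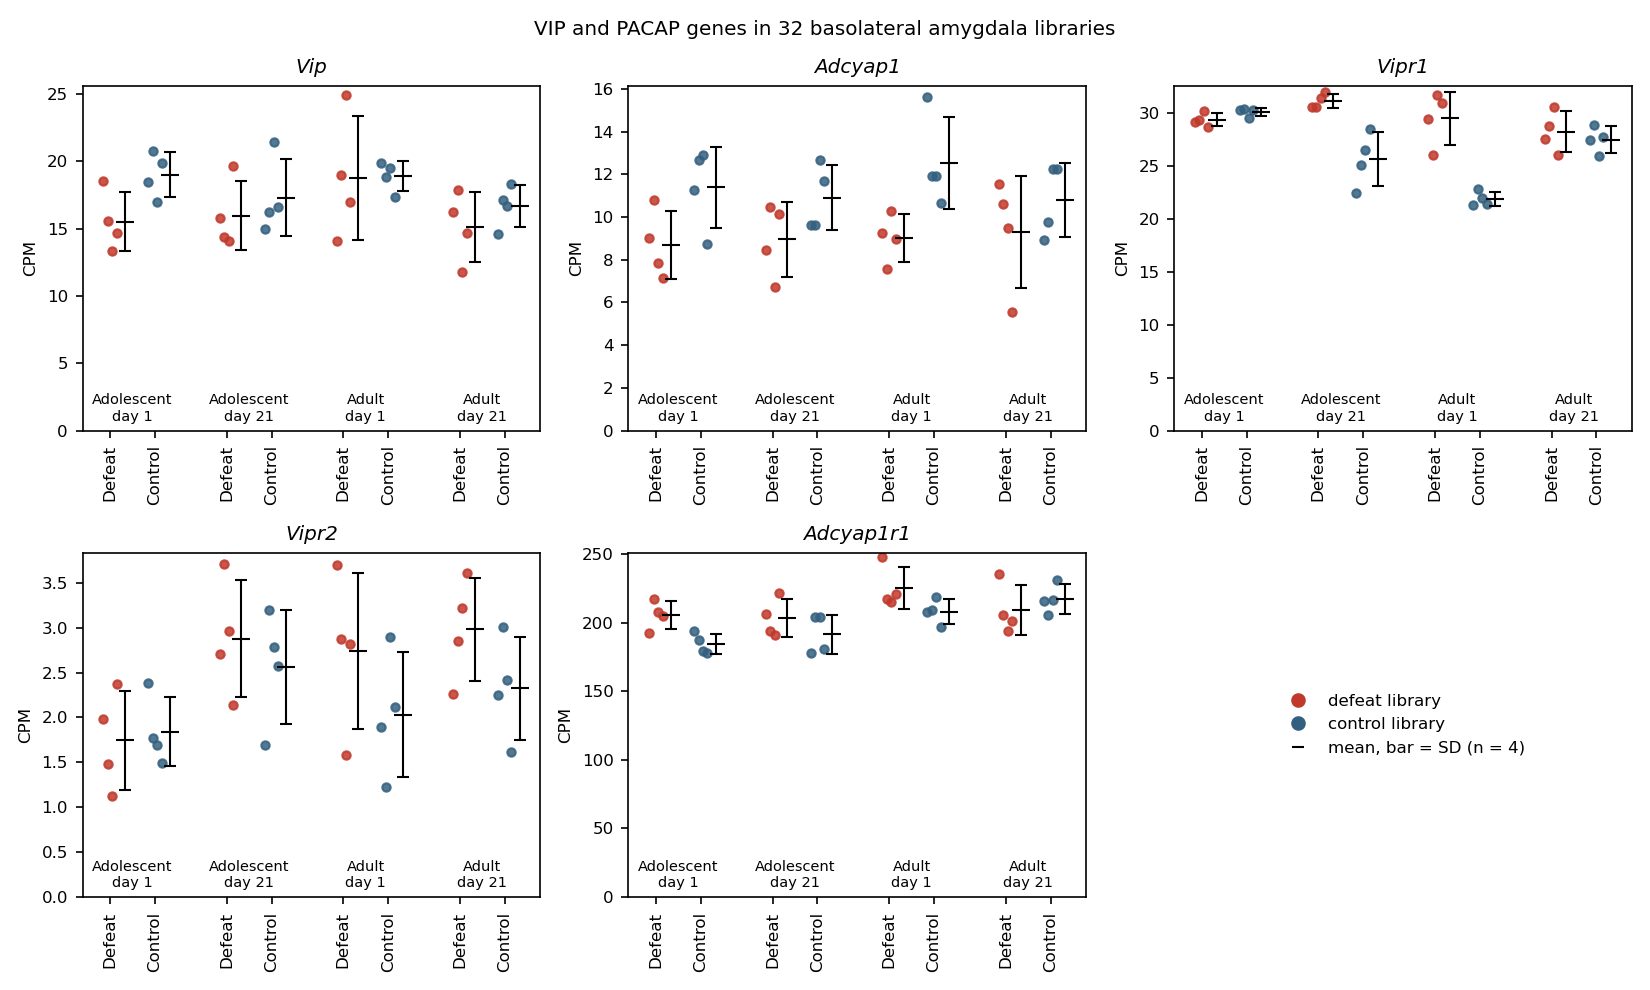
CPM of each gene in each library, with the mean and SD of each group of 4 and defeat to the left of its control. The 4 adult control day 1 libraries, at 21.4 to 22.8 CPM of Vipr1, lie below all but 1 library of the other groups, and Adcyap1 means are lower in every defeat group than in its control.

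Adcyap1, the PACAP precursor gene, had a lower mean in the defeat group than in its control in each of the 4 pairs, but passed the test in none of those tested. At day 1 in adolescents it had 9.03, 10.8, 7.83 and 7.15 CPM in defeat libraries, against 11.2, 12.7, 12.9 and 8.75 CPM in control libraries. The ranges overlapped, with 2 defeat libraries below all controls. The log2 change was -0.39 ± 0.18 (SE) with an edgeR adjusted p of 0.640. At day 21 in adolescents Adcyap1 had 8.45, 10.5, 6.71 and 10.2 CPM in defeat libraries, against 9.62, 9.64, 12.7 and 11.7 CPM in control libraries. Defeat libraries again overlapped the controls, and the log2 change of -0.29 ± 0.18 had an edgeR adjusted p of 0.964.

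In adults at day 1 Adcyap1 had 9.24, 7.57, 10.3 and 8.96 CPM in defeat libraries, against 15.6, 11.9, 11.9 and 10.6 CPM in control libraries. All 4 defeat libraries lay below all 4 controls, and the log2 change was -0.47 ± 0.18, given as a description. The share of all genes whose groups separate in this way is not given here or below. Such separations are therefore a description only. In adults at day 21 the gene had 11.5, 10.6, 9.49 and 5.55 CPM in defeat libraries, against 8.94, 9.75, 12.2 and 12.3 CPM in control libraries. These groups overlapped, and the log2 change of -0.22 ± 0.18 had an edgeR adjusted p of 0.921.

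Ordered by mean, the 4 defeat groups held the lowest 4 Adcyap1 levels, from 8.70 to 9.29 CPM, and the 4 control groups the highest 4, from 10.8 to 12.5 CPM. No 2 neighbours in that order differed by more than the larger of their SDs. The average of the defeat effects over the 3 pairs other than adults at day 1, a comparison chosen after the single values were seen, was -0.30 ± 0.10 on the log2 scale. Its edgeR adjusted p was 0.495, so Adcyap1 did not pass, nor did the other genes of the set, while 3 genes, or 0.0126% of those tested, did. At an unadjusted p under 0.05 this average held 3 of the 5 (Adcyap1, Vip and Vipr1), beside 7.08% of all genes, and DESeq2 called 0 of the 5 and 48 of all genes.

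Vip, which encodes the VIP precursor and marks an interneuron class, likewise passed no test. In adolescents at day 1 it had 18.5, 15.5, 13.3 and 14.7 CPM in defeat libraries, against 18.5, 20.8, 16.9 and 19.8 CPM in control libraries. Of the defeat libraries 3 lay below all controls, and the log2 change of -0.29 ± 0.14 had an edgeR adjusted p of 0.662. At day 21 in adolescents Vip averaged 16.0 ± 2.56 CPM in defeat libraries and 17.3 ± 2.84 CPM in control libraries. At day 1 in adults the averages were 18.7 ± 4.58 CPM in defeat libraries and 18.9 ± 1.12 CPM in control libraries, the defeat group spanning 14.1 to 24.9 CPM. In adults at day 21 defeat libraries averaged 15.1 ± 2.58 CPM and control libraries 16.7 ± 1.55 CPM (SD, n = 4 each). All these ranges overlapped, and the log2 changes were -0.12 ± 0.14 (edgeR adjusted p = 0.997), -0.01 ± 0.14 as a description, and -0.14 ± 0.14 (edgeR adjusted p = 0.943). The average over the 3 tested pairs was -0.18 ± 0.08 on the log2 scale, with an edgeR adjusted p of 0.648.

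**Figure D3:**
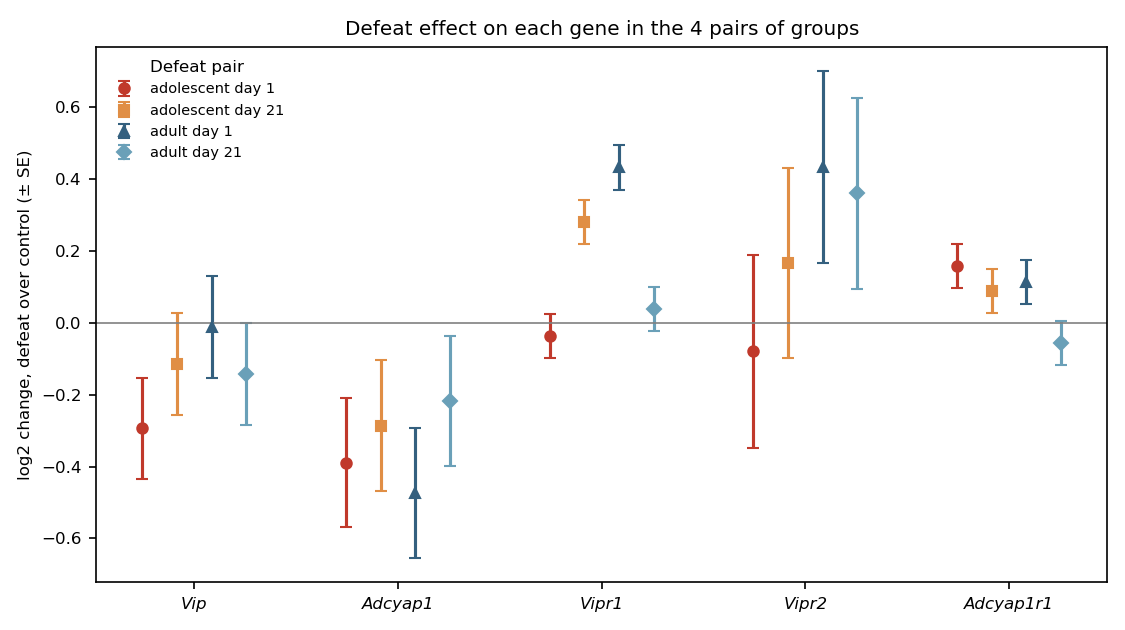
Log2 change of each gene, defeat over control, with its SE, in the 4 pairs of age class and day. Adcyap1 lies below 0 in all 4 pairs, Vipr1 lies near 0.28 in adolescents at day 21 and near 0.43 in adults at day 1, and the adult day 1 values are a description because they chose the set.

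Vipr1, the gene for VPAC1, was 1.35-fold higher in defeat than in control libraries of adults at day 1, the observation that led to the set. It had 29.4, 26.1, 31.7 and 31.0 CPM in defeat libraries, against 21.4, 22.8, 22.0 and 21.4 CPM in control libraries. The groups did not overlap, and the log2 change was 0.43 ± 0.06. Leaving out single libraries gave 0.40 to 0.49, and leaving out those above 100 CPM of Ttr gave 0.45. Since these libraries chose the gene, that stability is part of the description and supports nothing further. In this comparison 84 genes, or 0.353% of those tested, passed an adjusted p of 0.05.

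Outside that comparison, the largest Vipr1 difference with defeat was in adolescents at day 21. The gene had 30.6, 30.6, 31.5 and 32.03 CPM in defeat libraries, against 22.4, 25.2, 26.6 and 28.5 CPM in control libraries. The 4 defeat values lay close together and above every control, while the controls were more widely spread. The log2 change was 0.28 ± 0.06, or 1.21-fold, and its edgeR adjusted p of 0.195 missed the threshold, with 3 genes (0.0126%) called. DESeq2 gave 0.28 ± 0.06 with an adjusted p of 0.0288, so the call depended on the tool, and it called 20 genes in all.

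In adolescents at day 1 Vipr1 had 29.2, 29.4, 30.3 and 28.8 CPM in defeat libraries, against 30.3, 30.4, 29.6 and 30.3 CPM in control libraries. Of the defeat libraries 3 lay below all controls, though all values of the pair fell between 28.8 and 30.4 CPM. The log2 change of -0.04 ± 0.06 had an edgeR adjusted p of 0.969. In adults at day 21 the gene had 27.5, 28.8, 30.6 and 26.0 CPM in defeat libraries, against 27.4, 28.9, 25.9 and 27.8 CPM in control libraries. The ranges overlapped almost wholly, and the log2 change of 0.04 ± 0.06 had an edgeR adjusted p of 0.968.

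The 4 defeat groups had Vipr1 means between 28.2 and 31.2 CPM, and the 4 control groups between 21.9 and 30.2 CPM. Adult control day 1 held the lowest mean, 3.79 CPM below the next group, adolescent control day 21, a gap larger than either SD, although the highest of its libraries, at 22.8 CPM, exceeded the lowest of that group, at 22.4 CPM. Among the other neighbours in the order, only adolescent defeat day 21 stood above the next group, adolescent control day 1, by more than their SDs. The contrast that chose the set therefore holds the lowest control group, and every Vipr1 comparison with that group is a description. As such, Vipr1 was -0.46 ± 0.06 on the log2 scale in adult over adolescent controls at day 1, and 0.33 ± 0.06 in adult controls at day 21 over day 1. The adolescent pair at day 21 holds the next lowest control group, at 25.7 CPM. Its control libraries also enter the day difference in adolescent controls and the tested differences between defeat effects given below. These are therefore not separate observations.

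Whether the defeat effect on Vipr1 differed between age classes and days was tested where adults at day 1 were not used. At day 21 the effect in adults was 0.24 ± 0.09 log2 units smaller than in adolescents, with a difference of -0.24 and an edgeR adjusted p of 0.513, and 6 genes (0.0252%) passed. In adolescents the effect at day 21 exceeded that at day 1 by 0.32 ± 0.09, with an edgeR adjusted p of 0.591, and 1 gene (0.00421%) passed. Neither difference passed, nor did that of any other gene of the set, and at an unadjusted p under 0.05 each comparison held 1 gene of the set, Vipr1, beside 7.28% of all genes for the first and 4.97% for the second. As a description, the adult effect at day 1 exceeded the adolescent one by 0.47 ± 0.09, and the adult effect at day 21 minus that at day 1 was -0.40 ± 0.09.

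Vipr2, the gene for VPAC2, was the least expressed and had the widest errors. Its mean in defeat and in control libraries was 1.74 ± 0.550 and 1.84 ± 0.384 CPM in adolescents at day 1, and 2.88 ± 0.650 and 2.56 ± 0.633 CPM in adolescents at day 21. In adults the defeat and control means were 2.74 ± 0.870 and 2.03 ± 0.692 CPM at day 1, and 2.98 ± 0.573 and 2.32 ± 0.572 CPM at day 21. The ranges overlapped in every pair. The log2 changes of the tested pairs were -0.08 ± 0.27, 0.17 ± 0.27 and 0.36 ± 0.27, with edgeR adjusted p from 0.899 to 0.997, and that of adults at day 1 was 0.43 ± 0.27. At these SEs a change of the size seen for Vipr1 was not detectable.

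Adcyap1r1, the gene for PAC1, varied little. In adolescents at day 1 it had 193, 217, 208 and 205 CPM in defeat libraries, against 194, 187, 179 and 178 CPM in control libraries. Of the defeat libraries 3 lay above all controls, and the log2 change of 0.16 ± 0.06 had an edgeR adjusted p of 0.514. The other defeat changes were 0.09 ± 0.06 in adolescents at day 21 (edgeR adjusted p = 0.965), 0.11 ± 0.06 in adults at day 1 as a description, and -0.06 ± 0.06 in adults at day 21 (edgeR adjusted p = 0.946).

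In the tested defeat comparisons 0 of 5 genes passed in adolescents at day 1, where 13 genes (0.0547%) passed, 0 of 5 in adolescents at day 21 and 0 of 5 in adults at day 21, where 2 genes (0.00841%) passed. At an unadjusted p under 0.05 there were 3 of the 5 in adolescents at day 1 (Vip, Adcyap1 and Adcyap1r1), 1 in adolescents at day 21 (Vipr1) and 0 in adults at day 21, where the shares of all genes under that p were 7.45%, 5.72% and 6.46%. DESeq2 called 0, 1 and 0 of the 5, and 76, 20 and 37 of all genes, in the same order of comparisons. The comparison of adolescents at day 1 also differed in other markers. Choroid plexus markers summed over 10 genes ranged from 1528 to 2062 CPM in defeat libraries and from 196 to 1771 CPM in control libraries, with no marker at 0 in all libraries. Vessel markers summed over 5 genes ranged from 172 to 247 CPM in defeat libraries and from 129 to 152 CPM in control libraries. Blood markers summed over 5 genes ranged from 139 to 279 CPM in defeat libraries and from 92.3 to 161 CPM in control libraries, with a median log2 change of 0.80 over the 5, beside 0.49 for the vessel markers. All 11 striatum and central amygdala markers had higher means in defeat libraries, with a median of 0.15, and none of these markers was called. Adjusted for the choroid plexus score, the changes there were -0.35 ± 0.16 for Vip and -0.44 ± 0.20 for Adcyap1. Those of the receptor genes were 0.02 ± 0.06 for Vipr1, 0.11 ± 0.29 for Vipr2 and 0.19 ± 0.07 for Adcyap1r1. Ttr exceeded 100 CPM in 4 of 4 defeat and 1 of 4 control libraries there, so the score nearly followed the groups. The adjustment therefore cannot tell defeat apart from choroid plexus RNA, and the part of vessel and blood RNA was not tested.

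Markers of other cells are given for the pairs in which the Vipr1 values did not overlap. T lymphocytes are known to express Vipr1 in mice. Of 6 listed genes 3 were tested, with Cd4 at a mean of 18.5 CPM, Lck at 2.31 CPM and Cd8a at 0.0643 CPM. Cd3d, Cd3e and Cd3g did not pass the filter on low counts. The sum of the 6 is therefore mostly Cd4 and a poor measure of T lymphocytes. This sum ranged from 12.3 to 20.1 CPM in defeat and from 13.6 to 23.2 CPM in control libraries of adults at day 1. In adolescents at day 21 it ranged from 17.6 to 31.6 CPM in defeat and from 14.4 to 28.8 CPM in control libraries. Blood markers summed over 5 genes ranged from 70.7 to 180.7 CPM in defeat and from 57.0 to 168 CPM in control libraries of adults at day 1. In adolescents at day 21 they ranged from 138 to 179 CPM in defeat and from 114 to 133 CPM in control libraries, without overlap. Vessel markers summed over 5 genes ranged from 129 to 154 CPM in defeat and from 111 to 152 CPM in control libraries of adults at day 1. Their median log2 change was 0.11, and 1 of the 5 was called, where 0.353% of all genes passed. This was Vwf, higher by 1.13 ± 0.24 with an edgeR adjusted p of 0.0314. For the adolescent day 21 pair the vessel sum ranged from 135 to 183 CPM in defeat and from 136 to 166 CPM in control libraries. Of its 5 genes 4 were higher with defeat, with a median log2 change of 0.36 and 0 called. Choroid plexus markers had a median of 0.53 there (8 of 10 higher) and 0.66 in adults at day 1 (10 of 10). Those of striatum and central amygdala had 0.12 (10 of 11) and 0.05 (8 of 11), and none of either list was called. Over the 32 libraries Vipr1 had r = 0.48 with the vessel score and 0.39 with the blood score, and -0.03 and -0.20 for deviations from the group means. The part of these cells in the Vipr1 values was not tested.

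In control mice Adcyap1r1 was higher in adults than in adolescents at both days, although neither day alone passed. At day 1 it had 208, 209, 219 and 197 CPM in adult control libraries, against 194, 187, 179 and 178 CPM in adolescent control libraries. All adult values lay above all adolescent ones, with a log2 difference of 0.17 ± 0.06 and an edgeR adjusted p of 0.108. At day 21 it had 216, 205, 217 and 231 CPM in adult control libraries, against 178, 204, 204 and 181 CPM in adolescent control libraries. These did not overlap either, and the separation is a description at both days. The log2 difference was 0.18 ± 0.06, with an edgeR adjusted p of 0.0712. Of all tested genes, 1042 (4.38%) passed at day 1 and 1442 (6.06%) at day 21. Vipr1, untested at day 1, had the larger difference there, given above as a description.

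Averaged over both days, a comparison chosen after these values were seen, Adcyap1r1 was higher in adult controls by 0.18 ± 0.04 on the log2 scale, or 1.13-fold, with an edgeR adjusted p of 0.00573. It was the 1 gene of 4 tested that passed, against a background of 2600 genes (10.9%). Since both days had already been seen to differ in that direction, this pass adds no separate support. Without the libraries above 100 CPM of Ttr the difference was 0.15 ± 0.05 with an edgeR adjusted p of 0.132. Vip, Adcyap1 and Vipr2 differed between adult and adolescent controls by -0.03 ± 0.10, 0.06 ± 0.13 and 0.00 ± 0.19 over both days, with edgeR adjusted p from 0.845 to 0.999.

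Between days, Vipr1 in adolescent controls averaged 25.7 ± 2.57 CPM at day 21 and 30.2 ± 0.388 CPM at day 1. All day 21 values lay below all day 1 values, with a log2 difference of -0.23 ± 0.06. Its edgeR adjusted p of 0.0592 fell just short of the threshold, which 220 genes (0.925%) passed, and 5 alternative settings and 1 omission of a library put it below 0.05. In adult controls 204 genes (0.858%) passed between day 21 and day 1 and none of the 4 tested genes of the set did, while 0 of them had an unadjusted p under 0.05. Vipr2 had log2 differences of 0.48 ± 0.27 in adolescent controls and 0.19 ± 0.27 in adult controls at day 21 over day 1, neither passing.

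Across the 32 libraries the ligand genes had the highest correlation of any pair of the set. The correlation of Vip and Adcyap1 in log2 CPM was r = 0.48 (Spearman rho 0.51, n = 32), 0.57 without the 2 libraries farthest from the median of Vip, and 0.36 for deviations from the group means, where Adcyap1 and Adcyap1r1 had 0.38. These points share the groups and the dissection, so the values are a description. The other 9 pairs had r from -0.31 to 0.14.

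For each gene the most similar genes were sought by Pearson r over the same libraries, a description for which no test is given. Adcyap1 was most like Slc17a6, the vesicular glutamate transporter 2 gene, with r = 0.77 (rho 0.73, 0.69 without the 2 extreme libraries), followed by Tmem97 and Adcy2. Slc17a6 had lower means in defeat than in control libraries in each pair: 27.1 against 31.7 CPM in adolescents at day 1, 25.4 against 28.0 CPM in adolescents at day 21, 26.2 against 32.8 CPM in adults at day 1 and 23.9 against 30.4 CPM in adults at day 21. Since Slc17a6 was picked for its likeness to Adcyap1 in these libraries, its group means follow from that choice and support nothing further. For deviations from the group means the genes most like Adcyap1 were Efhd2, Doc2a and Dkkl1, with r from 0.77 to 0.81.

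Vip was most like Dlgap1, a postsynaptic scaffold gene, with r = 0.76 (rho 0.72, 0.69 without the 2 extreme libraries), then Ildr2 and Nrn1. It ran against the striatum and central amygdala score, the mean log2 CPM of 11 markers, with r = -0.74 (rho -0.75, -0.66 without the 2 extreme libraries), and -0.71 for deviations from the group means. With the pallial excitatory score r was 0.62, and with other markers of its interneuron class 0.06. With the striatum and central amygdala score as a covariate the average defeat effect on Vip over the 3 tested pairs was -0.07 ± 0.06, against -0.18 ± 0.08 without it. That of Adcyap1 was -0.23 ± 0.10, against -0.30 ± 0.10 without it. In the same average all 11 markers of the score had log2 changes above 0, with a median of 0.17 and 0 called. The markers of the score were thus higher with defeat on average, without a call, and the score itself was not tested against defeat. The covariate therefore cannot tell the dissection apart from defeat, and the part of the dissection was not tested.

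**Figure D4:**
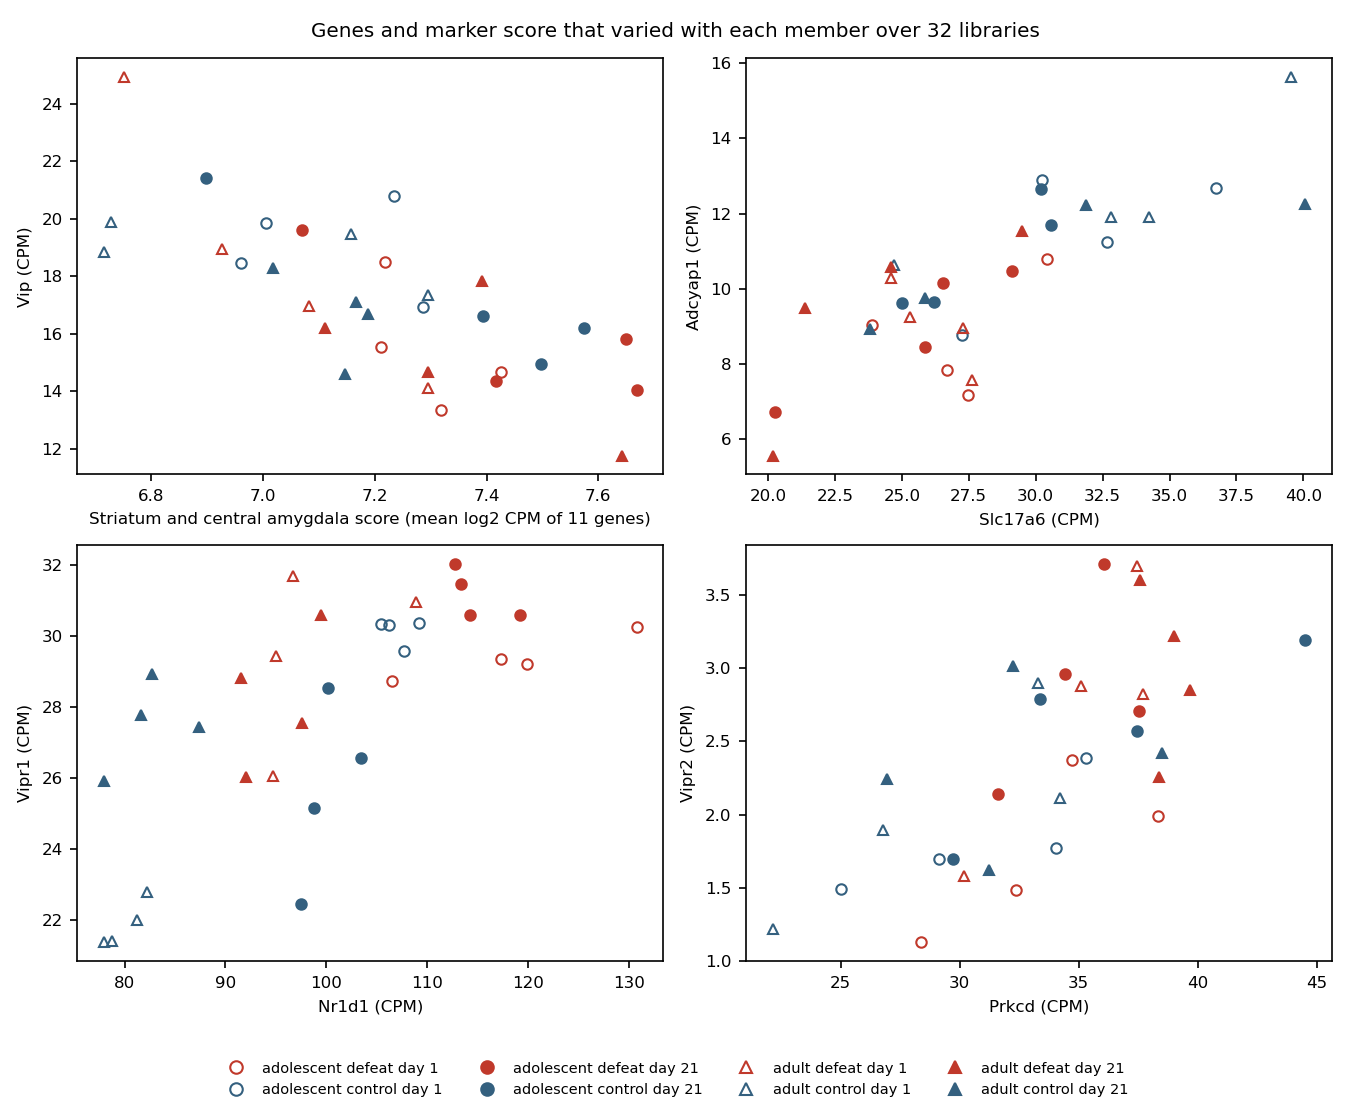
Each point is a library, with the group given by colour and symbol: Vip against the striatum and central amygdala score, Adcyap1 against Slc17a6, Vipr1 against Nr1d1 and Vipr2 against Prkcd, in CPM or as a score in log2 CPM. The correlations in log2 CPM over 32 libraries are -0.74, 0.77, 0.70 and 0.72.

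Vipr1 was most like Nr1d1, a repressor of the circadian clock, with r = 0.70 (rho 0.72, 0.61 without the 2 extreme libraries), then Ier5l and Nlgn2. Nr1d1 averaged 98.8 ± 6.75 CPM in defeat and 80.1 ± 2.03 CPM in control libraries of adults at day 1. In adolescents at day 21 it averaged 115 ± 2.95 CPM in defeat and 99.99 ± 2.56 CPM in control libraries (SD, n = 4 each). Since Nr1d1 was picked for its likeness to Vipr1 in these libraries, a similar pattern in these pairs follows from that choice. Nr1d1 also had higher means in defeat libraries of adolescents at day 1, with 119 against 107 CPM, and of adults at day 21, with 95.2 against 82.4 CPM, where Vipr1 hardly differed. The hour of tissue collection is not given in the labels, and its part in these values was not tested. By deviations from group means the genes most like Vipr1 were Nab2, Zbtb21 and Tnnc1, with r from 0.66 to 0.70.

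Vipr2 was most like Prkcd, a kinase gene that marks a class of central amygdala neurons and also thalamic neurons, with r = 0.72 (rho 0.67, 0.65 without the 2 extreme libraries). Prkcd ranked among its 3 nearest genes also by deviations from the group means, with r = 0.71, beside Cep63 and Car8. Prkcd belongs to the markers of the striatum and central amygdala score, with which Vipr2 had r = 0.41. Vipr2 ran against the pallial excitatory score with r = -0.58. Adcyap1r1 was most like Nbeal2, Samd4 and Anks1, with r from 0.78 to 0.81, and its r with the mean level of 27 cyclic AMP signalling genes was 0.59, but 0.26 for deviations from the group means.

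The rest of the family and the pathway gave no call in any of the 4 pairs of defeat and control groups. Of 12 other secretin family receptors 10 were tested, and of 8 other ligands 5. All 3 RAMP genes (accessory proteins of some of these receptors) were tested, as were 27 cyclic AMP signalling genes. So were 6 genes of Gq and phospholipase C signalling and 11 genes of propeptide processing. With defeat 0 passed in either age class at either day. Of all genes, 0.0547% and 0.0126% passed in adolescents at day 1 and day 21, and 0.353% and 0.00841% in adults. At such shares lists of this size would seldom hold a call, so the 0 is no result about these genes. The list medians of the cyclic AMP genes in the defeat comparisons lay between -0.03 and 0.02 log2 units, beside medians of all tested genes of -0.00 to 0.00. Per length, Crhr1, a receptor gene of corticotropin-releasing hormone, averaged 6.21 FPKM, beside 4.46 FPKM for Vipr1. Where the defeat effect was compared between days in adults, 148 genes (0.622%) passed, and 1 of the 27 cyclic AMP genes was among them. This was Pde4a, whose effect at day 21 minus that at day 1 was -0.34 ± 0.08 with an edgeR adjusted p of 0.0360.

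Between age classes some of these genes passed. In adult over adolescent controls at day 21, 6 of 27 cyclic AMP genes were higher and 0 lower, with a list median of 0.07 log2 units against -0.01 over all genes, of which 6.06% passed in either direction. Among them were Pde4a (0.31 ± 0.06, edgeR adjusted p = 0.000665) and Pde4d (0.36 ± 0.10, 0.0229), which encode phosphodiesterases that degrade cyclic AMP. Adcy8, an adenylyl cyclase gene, rose by 0.43 ± 0.10 with an edgeR adjusted p of 0.00819, and Prkar2a, a regulatory subunit gene of protein kinase A, by 0.26 ± 0.06 with 0.0109. At day 1, 2 of 27 were higher in adult controls: Creb1, the cyclic AMP response element-binding factor (0.32 ± 0.06, edgeR adjusted p = 0.000560), and Crem (0.30 ± 0.09, 0.0474), where 4.38% of all genes passed. Beside the same 6.06%, Crhr1 was the 1 of 10 other receptors that passed at day 21, higher in adult controls by 0.34 ± 0.09 with an edgeR adjusted p of 0.0139. Pde4a was also higher at day 21 than at day 1 in adult controls, by 0.27 ± 0.06 with an edgeR adjusted p of 0.0153. It was the 1 of 27 cyclic AMP genes called there, where 0.858% of all genes passed. All calls of Pde4a, the one between adult defeat effects included, use the adult control day 21 libraries. They are therefore not separate observations. Markers of other cells differed between the same age groups at day 21. All 11 striatum and central amygdala markers were lower in adult than in adolescent controls (median -0.27) with 0 called. The 5 vessel markers had a median of 0.51 with Flt1 and Slc2a1 called higher, and of 7 astrocyte markers Sox9 and Aldh1l1 were called lower. Their part in the cyclic AMP genes and in the age difference of Adcyap1r1 was not tested.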

How the data were processed

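For each of 32 libraries the deposited table gives a read count and an FPKM value per gene. The counts were deposited as whole numbers, and the authors also computed FPKM from their reads. Per the submitters' processing notes, cutadapt 1.9, HISAT2 2.0.4, StringTie 1.3.4d and edgeR were used. Those notes name hg38, a human build, whereas 37197 of 40392 identifiers were found in a mouse gene name table, so the build of the table's positions is taken as not stated. Whether counting used strand is unknown here. The members and gene lists were chosen with earlier results of these data known.

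Tests on counts used edgeR 4.0.16 (R 4.3.3): expression filter by group, TMM factors, 1 fit with 8 means and 24 residual degrees of freedom (biological coefficient of variation 0.185), quasi-likelihood F tests, 2-sided, and Benjamini-Hochberg adjustment over the 23778 tested genes at a threshold of 0.05. The fit was tested on simulated data. The SE of a log2 change is its size over the root of F. Similar genes were the 3 with the highest r per gene, by log2 CPM (prior count 2) and by deviations from group means, among genes above a mean of 1 CPM. Passing genes named from a list were at most 4 per list and comparison. Alternatives used DESeq2 1.42.0, upper quartile factors, no filter, genes with a mean FPKM of 1 or more, limma 3.58.1 on log2(FPKM + 0.1) and log2(FPKM + 1), covariates, subsets of libraries and a replicate block. Sequences came from RefSeq windows of GRCm38.p6, checked for exons against GENCODE M21. The precision of Vipr2 is limited by its 82 to 235 counts per library.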

Additional observations from a re-analysis of the deposited data

Results flagged for a closer look

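Of 40 sets of 4 values, 1 was flagged because a single library stood apart from the rest. Vipr1 in adolescent control day 1 replicate 3 was 29.6 CPM, while the other 3 libraries lay between 30.3 and 30.4 CPM. The gap took up 0.939 of the group's range. Chance flags about 1 in 20 such sets, and the value is close to the others in size.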

How the results depend on the processing

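Of 1588 log2 changes recomputed under the alternatives, 1527 kept their direction and their side of the threshold or, where no test is given, moved by less than 1 SD. Another 48 of those with a test changed sign, all for genes that did not pass in that comparison, 9 passed newly, 1 no longer passed and 3 of those without a test moved by more than 1 SD. In the Vipr1 contrast of adults at day 1 the log2 change stayed between 0.35 and 0.49, a description only, since these libraries chose the gene.

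The count of called genes was 1, in place of 0, for adolescent defeat at day 21 with DESeq2 (Vipr1, adjusted p = 0.0288), and for adult over adolescent controls at day 21 with DESeq2 (Adcyap1r1, adjusted p = 0.0437). It ranged from 0 to 1 in that age comparison when single libraries were left out, with 1 without adolescent control day 21 replicate 3 (Adcyap1r1, edgeR adjusted p = 0.0445). For day 21 over day 1 in adolescent controls the count was 1, Vipr1 each time, with a mean FPKM of at least 1 (edgeR adjusted p = 0.0344), the choroid plexus covariate (edgeR adjusted p = 0.0358), DESeq2 (adjusted p = 0.0128) and limma on log2(FPKM + 0.1) and log2(FPKM + 1) (adjusted p = 0.0285 and 0.0270). Leaving out single libraries there gave 0 to 1, with 1 without adolescent control day 21 replicate 4 (edgeR adjusted p = 0.0398). For the age difference over both days the count was 0, in place of 1, without libraries above 100 CPM of Ttr. The causes were not tested.

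Signs changed with the choroid plexus covariate in adolescents at day 1 for Vipr1 (0.018) and Vipr2 (0.11). With the striatum and central amygdala covariate they changed for Vip with defeat in adults at day 21 (0.0065) and in the age by defeat term at day 21 (0.044), and for Adcyap1 between days in adolescent controls (0.018) and between ages over both days (-0.023). Without libraries above 100 CPM of Ttr they changed for Vip in the age by defeat term (0.040), Adcyap1 between days (0.063), Adcyap1 between ages (-0.031) and Vipr2 between ages over both days (-0.089). The last was also -0.017 with upper quartile factors, -0.00041 with no filter and -0.0022 with DESeq2.

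Single omissions spanned 0 with defeat for Vipr2 in adolescents at day 1 (-0.27 to 0.085), Vip in adolescents at day 21 (-0.23 to 0.0020) and Vipr1 in adults at day 21 (-0.0057 to 0.075). In the age by defeat term at day 21 they spanned -0.15 to 0.090 for Vip and -0.051 to 0.25 for Adcyap1. Between ages of controls they spanned -0.062 to 0.036 for Vip and -0.079 to 0.32 for Vipr2 at day 1, and -0.11 to 0.070 for Vip, -0.077 to 0.070 for Adcyap1 and -0.29 to 0.0026 for Vipr2 at day 21. Over both days these were -0.062 to 0.030 for Vip, -0.0028 to 0.10 for Adcyap1 and -0.11 to 0.094 for Vipr2. Between days in adolescent controls Adcyap1 spanned -0.17 to 0.0035. Among the comparisons given without a test they spanned 0 for Vip with defeat in adults at day 1 (-0.18 to 0.11), Adcyap1 in the age by defeat term at day 1 (-0.17 to 0.041), and Vip (-0.25 to 0.035) and Vipr2 (-0.30 to 0.11) in the day by defeat term of adults, each moving by less than 1 SD.

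Replicate numbers did not pair the libraries: same-numbered deviations correlated between -0.40 and 0.34, and 0 or 1 of 4 libraries per pair of groups matched best with its own number. With the replicate block the counts were 0 in each planned comparison and 1 for the age difference over both days, as without it. Omitting libraries above 100 CPM of Ttr was not run for comparisons with adolescent defeat day 1, where it leaves none. Vipr2 fell below the FPKM limits and has no value there. Its depth of 82 to 235 counts limits what could be detected.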
